A study of Mus musculus with 2 samples.

Results

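The miR-17-92 and miR-106b-25 clusters are related groups of microRNA genes, each read out of 1 longer transcript. They were described here in skeletal muscle of newborn mice. The members were chosen by gene symbol, by a rule that uses no measured values, although earlier results of these data were known. They were Mir17, Mir18, Mir19a, Mir20a, Mir19b-1 and Mir92-1 for the first cluster, and Mir106b, Mir93 and Mir25 for the second. These 9 genes are among 1973 microRNA genes in the count tables. RNA under 30 bases was sequenced from 2 muscle samples of strain B6NCrl mice at postnatal day 0, each labelled as part of an organ from 1 pup. The samples are biological replicates 1 and 2 of 1 group, with no sex recorded and no treatment or genetic change in the labels. They have separate tissue records but 1 shared donor record, so the spread between them may hold less than the variation between pups. No condition is compared with another, and every difference below is between these 2 libraries.

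MicroRNAs are cut from hairpin-shaped precursors and pair with messenger RNAs mainly through the seed, bases 2 to 8 from their 5′ end, which lowers the output of the paired message. Members with the same seed share many targets even when they come from different transcripts. The miR-17-92 cluster is transcribed under MYC and E2F factors, is known for promoting cell-cycle entry and survival in tumours and growing tissue, and is needed for normal heart, lung and B-cell development in mice. The miR-106b-25 cluster lies in Mcm7, which encodes a subunit of the helicase that opens DNA for replication. Muscle at birth still holds dividing precursor cells beside growing fibres.

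The 9 guide sequences, meaning the arm of each hairpin known as the active one, fall into 4 groups by seed. They are printed 5′ to 3′ with the seed in capitals (RefSeq, GRCm38.p6), because the results below are ordered by these groups and because near-identity decides which reads could be assigned. All 9 members had an entry.
Mir17 (miR-17-5p): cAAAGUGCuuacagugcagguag
Mir20a (miR-20a-5p): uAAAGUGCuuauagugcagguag
Mir93 (miR-93-5p): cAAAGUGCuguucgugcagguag
Mir106b (miR-106b-5p): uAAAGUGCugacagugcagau
Mir18 (miR-18a-5p): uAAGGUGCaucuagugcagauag
Mir19a (miR-19a-3p): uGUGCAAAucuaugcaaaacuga
Mir19b-1 (miR-19b-3p): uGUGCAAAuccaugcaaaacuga
Mir92-1 (miR-92a-3p): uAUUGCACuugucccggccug
Mir25 (miR-25-3p): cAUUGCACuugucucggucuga

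Both clusters contribute to the miR-17 seed group (Mir17 and Mir20a from the first, Mir93 and Mir106b from the second) and to the miR-25/92 seed group (Mir92-1 and Mir25). The miR-18 and miR-19 seeds occur only in the first cluster among the 9 members. Positions were counted from 1 at the 5′ end of the guide. Against miR-17-5p, miR-20a-5p carries C1U and C12U, and miR-93-5p carries U10G, A11U, C12U and A13C. Against miR-19a-3p, miR-19b-3p carries U11C alone. Against miR-92a-3p, miR-25-3p carries U1C, C14U and C18U over 21 bases compared.

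The 6 genes of miR-17-92 lie on the plus strand of chromosome 14 between 115043671 and 115044506 (GRCm38), within 836 bases and all inside an exon of the noncoding gene Mir17hg (ENSMUSG00000089726.2, 115042879 to 115046727). Along the transcript the order is Mir17, Mir18, Mir19a, Mir20a, Mir19b-1 and Mir92-1, with gaps of 35 to 96 bases between hairpins. The 3 genes of miR-106b-25 lie on the minus strand of chromosome 5 between 138165321 and 138165818, within 498 bases, in the order Mir106b, Mir93 and Mir25. They lie inside Mcm7 (ENSMUSG00000029730.16, 138164583 to 138172422), in an intron of 2 of its annotated transcripts. In 1 further transcript Mir93 and Mir25 fall in an exon.

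Replicate 1 held 7955914 counts on the annotated strand of microRNA genes and replicate 2 held 10816295. Levels are given as CPM, counts scaled to these totals, and 3 counts, taken as the limit of detection, equal 0.377 CPM in replicate 1 and 0.277 CPM in replicate 2. Counts were not divided by gene length, since a read of this size covers 1 mature arm. Counts are per gene, so both arms of a hairpin are added together. Only reads that fit 1 place were counted, while 28.01% of reads in replicate 1 and 26.9% in replicate 2 fitted several and were set apart by the authors. The muscle label was checked against 8 muscle microRNA genes, of which Mir1a-2 is not in the tables. The other 7 summed to 109278 CPM in replicate 1 and 122731 CPM in replicate 2, nearly all of it from Mir206. Mir1a-1 had only 10.1 and 6.47 CPM, and Mir133a-1 5.91 and 5.55 CPM, in replicates 1 and 2. Mir133a-2 stood under the count minimum.

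All 9 members were detected, with at least 10 counts in both libraries, as were 365 of the 1973 genes. Together they took 1.07% of counts in replicate 1 (95% Clopper-Pearson interval 1.06% to 1.08%) and 0.692% in replicate 2 (0.687% to 0.697%), a mean of 0.880% ± 0.266 (SD, n = 2). These and all other intervals cover counting error only. The miR-17-92 cluster took 0.818% of counts in replicate 1 and 0.521% in replicate 2 (0.669% ± 0.209, SD, n = 2). The miR-106b-25 cluster took 0.251% in replicate 1 and 0.171% in replicate 2 (0.211% ± 0.0569, SD, n = 2). Within a library, where depth and scaling cancel, miR-17-92 exceeded miR-106b-25 by 3.25-fold in replicate 1 and 3.05-fold in replicate 2, a ratio of 3.15 ± 0.143 (SD, n = 2). As in all levels here, only reads that fit 1 place are included. No count fell on the opposite strand of any of the 9 members in either library.

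The miR-17 seed group carried most of the counts of both clusters. These counts leave out reads that Mir92-1 and Mir19b-1 share with copies on chromosome X, described below. It held 77.6% of the members' counts in replicate 1 and 72.1% in replicate 2. Mir17, whose product is known to repress E2F1 and the cell-cycle inhibitor p21, was the highest member with 4666 CPM in replicate 1 and 2768 CPM in replicate 2 (3717 ± 1342, SD, n = 2). It ranked 48 of all genes by mean CPM, between Mir98 (3789 ± 28.6) and Mir149 (3708 ± 549), and both neighbours differed from it by less than its own spread. Mir20a, a close relative of Mir17 that also acts on E2F factors, had 1436 CPM in replicate 1 and 788 CPM in replicate 2. The ratio of Mir17 to Mir20a was 3.25 in replicate 1 and 3.51 in replicate 2. To Mir92-1, which stood above Mir20a in replicate 2, the ratio of Mir17 was 4.61 in replicate 1 and 3.20 in replicate 2. By these counts Mir17 led its cluster in both.

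Mir93, the middle gene of the Mcm7 cluster, had 1316 CPM in replicate 1 and 746 CPM in replicate 2 (1031 ± 403, SD, n = 2). It ranked 84, between Mir667 (1052 ± 125) and Mir410 (983 ± 213), which differed from it by less than its spread. Mir106b, first in the same transcript and known with Mir93 to repress p21, had 876 CPM in replicate 1 and 690 CPM in replicate 2 (783 ± 131, SD, n = 2). Mir93 therefore exceeded Mir106b in both libraries, but by unequal factors: the ratio of Mir106b to Mir93 was 0.665 (0.645 to 0.686) in replicate 1 and 0.925 (0.896 to 0.955) in replicate 2.

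Mir18, which differs from the miR-17 group in its seed and is known to repress the matricellular gene Ctgf in tumour cells, had 1041 CPM in replicate 1 and 778 CPM in replicate 2 (910 ± 186, SD, n = 2). In the miR-25/92 seed group, Mir92-1, known for restraining vessel growth, had 1013 CPM in replicate 1 and 866 CPM in replicate 2 (939 ± 104, SD, n = 2). Mir25, known in heart muscle for repressing the calcium pump SERCA2a, had 321 CPM in replicate 1 and 273 CPM in replicate 2 (297 ± 34.0, SD, n = 2). Of the 6 highest members, Mir92-1 and Mir106b had the smallest SD and Mir17 the largest.

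The miR-19 genes stood far below their neighbours on the same transcript. Their product is known as the main oncogenic part of the cluster in mouse lymphoma. Mir19a had 120 counts in replicate 1 and 126 in replicate 2, equal to 15.1 CPM in replicate 1 and 11.6 CPM in replicate 2. Mir19b-1 had 34 counts in replicate 1 and 16 in replicate 2, equal to 4.27 CPM in replicate 1 and 1.48 CPM in replicate 2. Mir18, the gene before Mir19a on the transcript, exceeded it by 69.0-fold in replicate 1 and 66.8-fold in replicate 2. Mir20a, between the miR-19 genes, exceeded Mir19b-1 by 336-fold in replicate 1 (240 to 486) and 533-fold in replicate 2 (328 to 933).

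**Figure D1:**
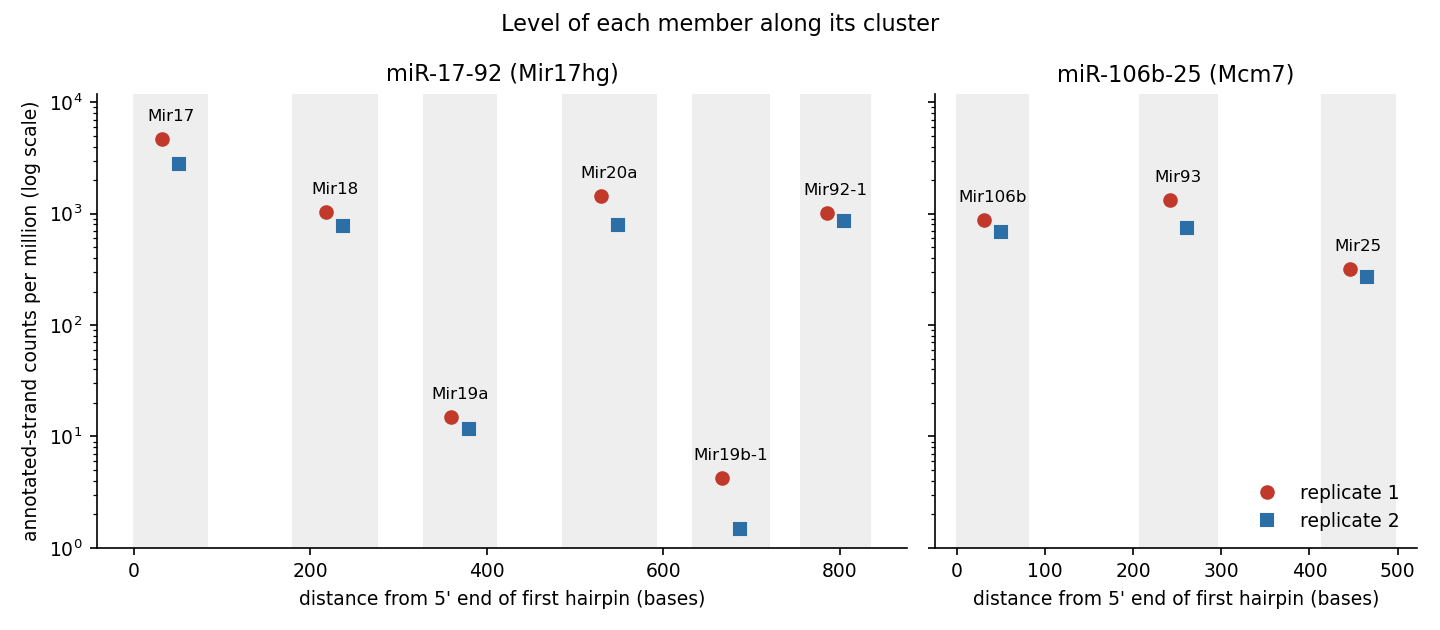
Level in CPM of annotated-strand counts (log scale) of the 9 members in replicate 1 (circles) and replicate 2 (squares), against the distance of each hairpin (grey band) from the 5′ end of the first hairpin of its cluster, in bases. Mir17 stands highest at 4666 and 2768 CPM in replicates 1 and 2, and Mir19a and Mir19b-1 stand under 16 CPM in both.

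Ordered by mean CPM, the members ran Mir17, Mir20a, Mir93, Mir92-1, Mir18, Mir106b, Mir25, Mir19a and Mir19b-1. Some neighbours in this order could not be told apart beyond their spread. Mir93 exceeded Mir92-1 by 1.30-fold in replicate 1 but stood at 0.861 of it in replicate 2, and Mir92-1 stood at 0.973 of Mir18 in replicate 1 but 1.11 of it in replicate 2. Mir20a exceeded Mir93 in both libraries, by only 1.09-fold in replicate 1 and 1.06-fold in replicate 2. Mir18 stood above Mir106b by 1.19-fold in replicate 1 and 1.13-fold in replicate 2. The steps to Mir25 and to Mir19a were wider: Mir106b exceeded Mir25 by 2.73-fold in replicate 1 and 2.53-fold in replicate 2, and Mir25 exceeded Mir19a by 21.3-fold in replicate 1 and 23.4-fold in replicate 2.

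The levels of Mir19b-1 and Mir92-1 are affected by copies on chromosome X. Their guides recur letter for letter in Mir19b-2 and Mir92-2 of the paralog cluster miR-106a-363, and reads that fit both places were set apart before counting. The stretch around each guide is printed below with the run shared by both hairpins in capitals (RefSeq, GRCm38.p6).
Mir19b-1 (chr14:115044350-115044388, plus strand): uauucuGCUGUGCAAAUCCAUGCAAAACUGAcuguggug
Mir19b-2 (chrX:52741983-52742021, minus strand): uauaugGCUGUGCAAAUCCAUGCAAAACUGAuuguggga
Mir92-1 (chr14:115044468-115044504, plus strand): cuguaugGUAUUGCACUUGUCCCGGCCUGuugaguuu
Mir92-2 (chrX:52741846-52741882, minus strand): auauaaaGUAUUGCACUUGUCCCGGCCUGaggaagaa

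The shared run is 25 bases for the miR-19b pair, 2 of them before the guide and 0 after it. For the miR-92a pair it is 22 bases, 1 before the guide and 0 after it. If no mismatch was allowed, a read of the guide with at least 1 further base of its own hairpin at the 3′ end would fit 1 place in either pair. The aligner is not given in the sources used, so this was not checked. Because shared reads were set apart, the counts of Mir19b-1, Mir92-1, Mir19b-2 and Mir92-2 are lower limits. The ratios between these genes cover only reads that fit 1 place. Mir19b-1 exceeded Mir19b-2 by 2.13-fold in replicate 1 (1.14 to 4.12) and 2.00-fold in replicate 2 (0.808 to 5.40), from few counts. Mir92-1 exceeded Mir92-2 by 23.5-fold in replicate 1 and 27.1-fold in replicate 2. None of the other 7 guides recurred in another of 1004 RefSeq hairpins, Mir19a included, whose longest run shared with any hairpin was 13 bases. The part of shared reads in the low level of Mir19a was not tested, and recurrence outside annotated microRNA genes was not analysed here.

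The make-up of each cluster differed between the libraries by more than counting error, which was common in these data. By the exact binomial test described below, 61.1% of all 365 detected genes had an adjusted p under 0.05 between the libraries. Mir17 took 57.1% of miR-17-92 counts in replicate 1 (56.7% to 57.5%) and 53.1% in replicate 2 (52.7% to 53.5%). Mir20a took 17.6% in replicate 1 and 15.1% in replicate 2. Against these, Mir18 took 12.7% in replicate 1 and 14.9% in replicate 2, and Mir92-1 took 12.4% in replicate 1 and 16.6% in replicate 2. Mir19a and Mir19b-1 together stayed under 0.3% of the cluster in both. In miR-106b-25, Mir93 took 52.4% in replicate 1 (51.7% to 53.1%) and 43.7% in replicate 2 (42.9% to 44.4%). Mir106b took 34.9% in replicate 1 and 40.4% in replicate 2, and Mir25 took 12.8% in replicate 1 and 16.0% in replicate 2.

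**Figure D2:**
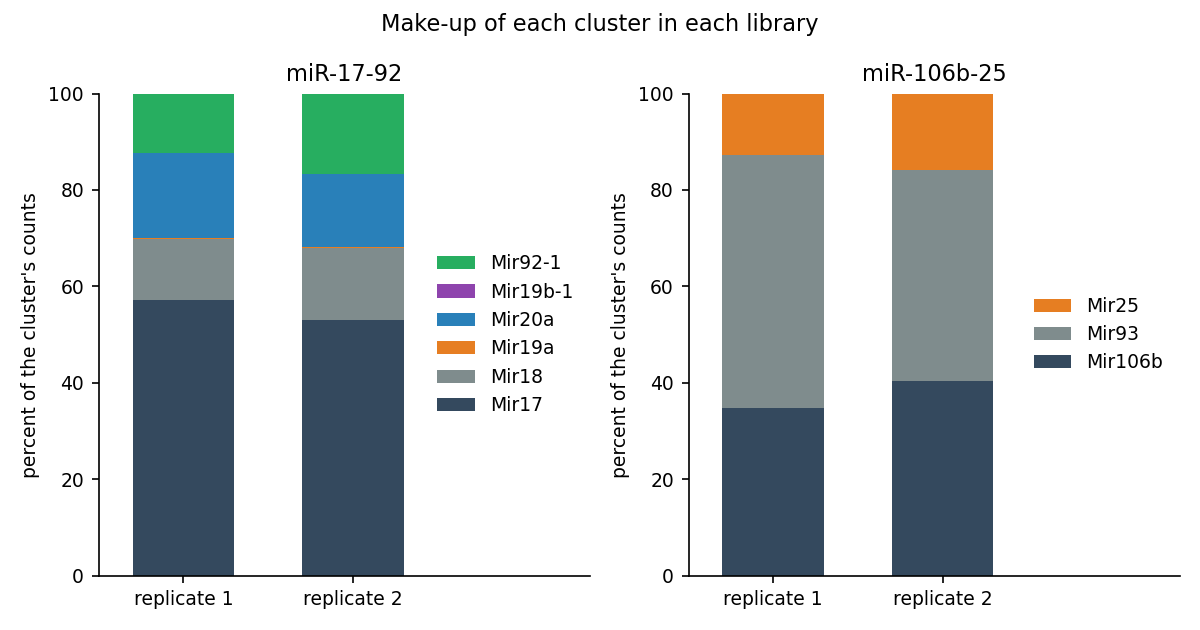
Percent of each cluster's annotated-strand counts taken by each member, as stacked bars from 0 to 100, for replicates 1 and 2. Mir17 takes more than 50% of miR-17-92 in both libraries, and Mir93 takes 52.4% of miR-106b-25 in replicate 1 and 43.7% in replicate 2.

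The ratios between members were set side by side in both libraries, with counting intervals. Over all 9 members, the intervals of replicate 1 and replicate 2 overlapped in 9 of the 18 pairs on 1 transcript and in 9 of the 18 pairs on different transcripts. Most of these overlaps involve a miR-19 gene, whose few counts give wide intervals. Among the 7 members without the miR-19 genes, they overlapped in 1 of 9 pairs on 1 transcript, Mir106b and Mir25, and in 4 of 12 pairs on different transcripts. Of the 4, Mir17 to Mir93 was 3.55 (3.47 to 3.62) in replicate 1 and 3.71 (3.62 to 3.80) in replicate 2, and Mir92-1 to Mir25 was 3.16 (3.02 to 3.30) in replicate 1 and 3.18 (3.05 to 3.31) in replicate 2. Mir20a with Mir93 and Mir18 with Mir106b were the other two. Within a transcript, Mir17 to Mir92-1 was 4.61 (4.50 to 4.72) in replicate 1 and 3.20 (3.12 to 3.27) in replicate 2, and Mir93 to Mir25 was 4.10 (3.93 to 4.29) in replicate 1 and 2.74 (2.62 to 2.85) in replicate 2. By seed, the intervals overlapped in 4 of 8 pairs with the same seed and in 14 of 28 pairs with different seeds over all 9 members, and in 3 of 7 and 2 of 14 without the miR-19 genes. Mir17 to Mir106b, a pair with the same seed, was 5.33 in replicate 1 and 4.01 in replicate 2. Overlap also depends on counts among the 7 members without miR-19. Mir17 to Mir20a, at 3.25 and 3.51 in replicates 1 and 2, had no overlap. Mir106b to Mir25, at 2.73 and 2.53 with wider intervals, did overlap. Pairs of other detected genes were not compared, so no background stands beside these counts of pairs. These groupings, and the leaving out of the miR-19 genes, were chosen after the values were seen. With 2 libraries no difference between kinds of pair was tested.

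To set each member against the whole table, library sizes were scaled by trimmed means (TMM) and each gene was tested between replicate 1 and replicate 2 by an exact two-sided binomial test, with Benjamini-Hochberg adjustment over all 365 detected genes. A gene was called at an adjusted p under 0.05 and at least 2-fold. The test compares the libraries and takes counting error as its only error. Of the 9 members 1 was called, Mir19b-1, higher in replicate 1 with a log2 ratio of 1.29 (0.39 to 2.24) from 34 and 16 counts in replicates 1 and 2 (exact binomial test, adjusted p = 0.0048). Over all detected genes, 7.4% were called in either direction and 6.3% as higher in replicate 1. With the adjusted p alone, 6 of the 9 members were called, against 61.1% of detected genes. All 6 were higher in replicate 1, where 30.1% of detected genes were called, and 0 in replicate 2, where 31% were. Genes with more counts pass this test more readily.

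The log2 ratio was 0.51 (0.49 to 0.53) for Mir17, 0.62 (0.58 to 0.66) for Mir20a and 0.57 (0.53 to 0.62) for Mir93. Lower ratios were found for Mir18 (0.17, 0.13 to 0.22), Mir106b (0.10, 0.05 to 0.15) and Mir19a (0.13, -0.25 to 0.50). Those of Mir92-1 (-0.02, -0.06 to 0.02) and Mir25 (-0.01, -0.09 to 0.07) had intervals that span 0 and turned positive under library totals, at 0.23 for both. The median over the 9 members was 0.17, beside 0.01 over all detected genes, of which the middle 90% lay between -0.69 and 1.17. Under library totals these medians were 0.42 and 0.26. Except for Mir19b-1, every member lay inside the range of the middle 90%.

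**Figure D3:**
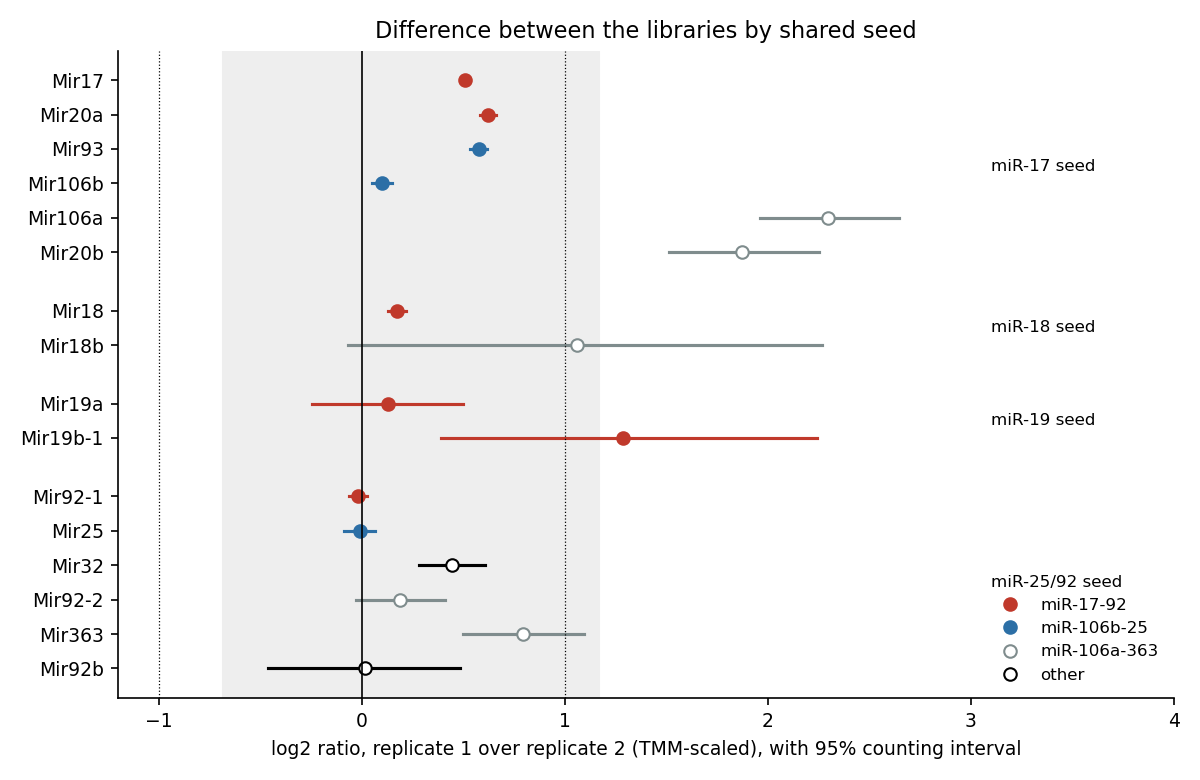
TMM-scaled log2 ratio of replicate 1 over replicate 2, with 95% counting intervals, for members (filled) and other detected genes with the same seed (open), ordered by seed. The grey band spans the middle 90% of all 365 detected genes (-0.69 to 1.17) and dotted lines mark 2-fold. Mir17, Mir20a and Mir93 lie between 0.51 and 0.62, and Mir92-1 and Mir25 lie at -0.02 and -0.01.

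Markers of other cells differed between the libraries as well. All 4 fibroblast and mesenchymal genes had positive log2 ratios (median 0.64), with a summed level of 6717 CPM in replicate 1 and 5017 CPM in replicate 2. Most of this sum came from Mir214, with 5428 CPM in replicate 1, 4355 CPM in replicate 2 and a log2 ratio of only 0.07. The sums are in CPM, while the log2 ratios are TMM-scaled. The 2 erythroid genes summed to 583 CPM in replicate 1 and 286 CPM in replicate 2. The 4 leukocyte genes in the tables, which lack Mir142 of that list, summed to 752 and 546 CPM in replicates 1 and 2. Most of this came from Mir223, with a log2 ratio of 0.14. Mir155 and Mir146 had 0.76 and 0.54, while Mir150 went the other way at -0.21. None of the fibroblast and mesenchymal, erythroid or leukocyte genes was called. Of 7 epithelial genes, 5 were called as higher in replicate 1, and the list summed to 531 CPM in replicate 1 and 334 CPM in replicate 2. The remaining Mir203 and Mir205 had log2 ratios of -0.12 and -0.07. Mir203 was the highest of the list, with 292 CPM in replicate 1 and 268 CPM in replicate 2. Endothelial Mir126a, the 1 gene of its list, had a log2 ratio of -0.32, and the 6 detected muscle genes had a median of -0.18, which was 0.06 under library totals. None of the listed genes found in the tables was at 0 in both libraries. The part of these cells in the members' differences was not tested, and in whole tissue fewer cells of a type and less RNA per cell cannot be told apart.

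By likeness of pattern, measured as the distance to Mir17 in log2 ratio over 2 libraries, the nearest of the 165 other genes averaging 100 CPM or more were Mir148a (0.50), Mirlet7c-1 (0.52) and Mir30d (0.47). They had 1202 and 719 CPM, 136 and 79.8 CPM, and 5593 and 3401 CPM in replicates 1 and 2. With 2 libraries such a match rests on 1 value per gene.

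**Figure D4:**
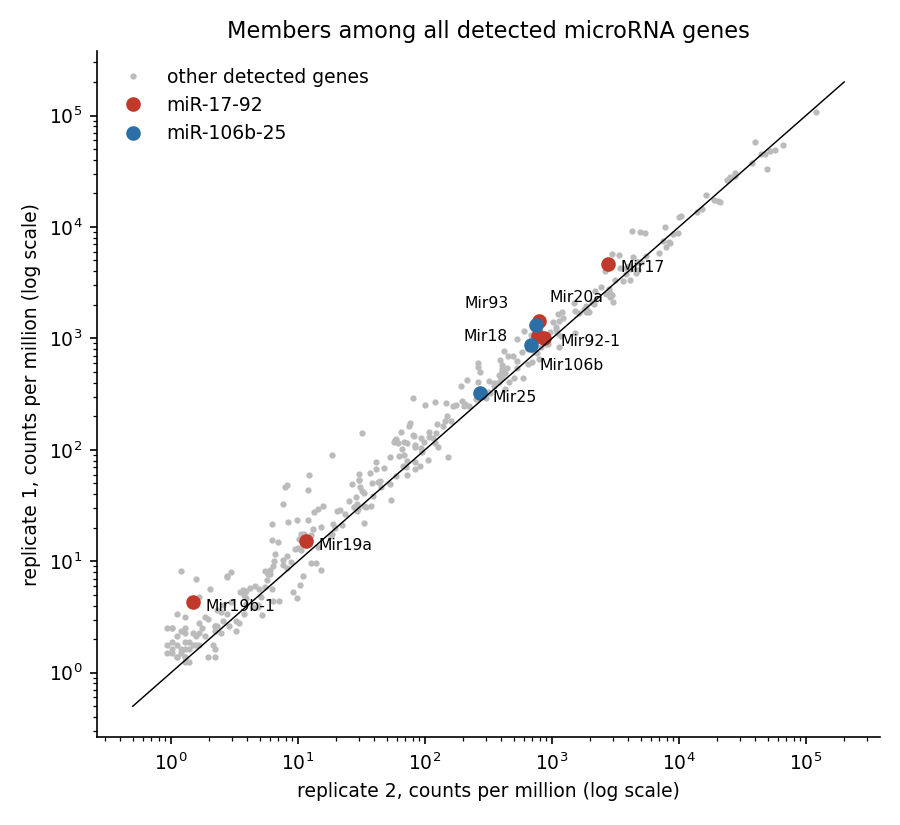
CPM in replicate 1 (vertical) against replicate 2 (horizontal), both on log scales, for the 365 detected genes, with the 9 members in colour and a line of equal CPM. All 9 members lie above the line, as do 72.1% of the detected genes. Mir92-1 and Mir25 lie closer to it than Mir17, Mir20a and Mir93.

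Beside other genes with the same seeds, the members supplied most of the counts of reads that fit 1 place. For the miR-19 and miR-25/92 seeds, reads shared with Mir19b-2 and Mir92-2 were not counted. The members' full share of these seeds is therefore not known, and the intervals do not cover this. Of the miR-17 seed group, which has 7 genes in RefSeq, the 4 members supplied 99.0% of counts in replicate 1 and 99.7% in replicate 2. For the miR-18 seed, Mir18 supplied 99.8% in replicate 1 and 99.9% in replicate 2, with Mir18b at 20 counts in replicate 1 and 11 in replicate 2. For the miR-19 seed the members supplied 90.6% in replicate 1 (85.2% to 94.5%) and 94.7% in replicate 2 (89.8% to 97.7%). For the miR-25/92 seed, Mir92-1 and Mir25 supplied 88.8% in replicate 1 and 91.4% in replicate 2. The remainder came mainly from Mir32, with 86.1 CPM in replicate 1 and 53.3 CPM in replicate 2, Mir92-2, Mir363 and Mir92b. Mir6383 of the miR-17 group and Mir367 of the miR-25/92 group, the last a pluripotency microRNA, had 0 counts in both.

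By counts of reads that fit 1 place, the paralog cluster miR-106a-363 on chromosome X stood far lower. Reads that Mir92-2 and Mir19b-2 share with Mir92-1 and Mir19b-1 are in neither cluster's counts. The full ratio between the clusters is therefore not known, and the intervals do not cover this. It took 0.0158% of counts in replicate 1 and 0.00639% in replicate 2, so that miR-17-92 exceeded it by 51.7-fold (48.9 to 54.7) in replicate 1 and 81.6-fold (75.7 to 88.1) in replicate 2. Its miR-17 seed genes Mir106a and Mir20b, which differ from miR-17-5p by U10A alone and by U10C and C12U, were called as higher in replicate 1 with log2 ratios of 2.30 and 1.87 (exact binomial test, adjusted p = 9.02e-53 and 2.30e-28). Mir106a had 47.9 CPM in replicate 1 and 8.23 CPM in replicate 2, and Mir20b had 32.9 CPM in replicate 1 and 7.58 CPM in replicate 2. The ratio of Mir17 to Mir106a was 97.4 (88.1 to 108) in replicate 1 and 336 (273 to 419) in replicate 2.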

How the data were processed

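Small RNA was profiled in 2 libraries of 1 group. For each, the authors deposited raw read counts per microRNA gene (assembly mm10, GENCODE M4, per the readme text deposited with the files), in whole numbers, with 4 rows that name no gene. Which aligner and counter were used is not given in the sources used. Columns for either, annotated and opposite strand add up in all 1973 genes, and the larger strand column was taken as the annotated strand. The rows without a gene stayed out of library sizes: reads in several places (28.01% and 26.9% of 16398945 and 21037937 reads in replicates 1 and 2), reads with no alignment (16.0% and 13.4%) and those outside genes (1.60% and 1.43%).

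Symbols and coordinates came from GENCODE M21 on GRCm38, the same assembly, by gene ID (1894 matched), and sequences from RefSeq. A gene with at least 10 counts in both libraries was detected. edgeR's quasi-likelihood test has no contrast within 1 group, so each gene had an exact binomial test, two-sided (scipy 1.17.1), with TMM factors 1.09 and 0.918 for replicates 1 and 2 (edgeR 4.0.16, R 4.3.3), checked on simulated counts. Intervals are 95% Clopper-Pearson. Named genes were the members, the miR-106a-363 genes, genes with a member's seed, the nearest 3 genes to Mir17 in log2 ratio and the level neighbours of each cluster's highest member. Members, lists and tests were chosen with earlier results of these data known. Alternatives were either-strand counts, library totals, DESeq2 1.42.0 size factors, count minimums of 1 and 50, a fold minimum of 1.5, unshared guides only and each replicate left out.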

Additional observations from a re-analysis of the deposited data

How the results depend on the processing

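The shares of both clusters, their ratio and the members' levels moved by less than their SD with either-strand counts, except Mir92-1 at 834 CPM. Leaving out each replicate gave 0.521% to 0.818% for miR-17-92, 0.171% to 0.251% for miR-106b-25 and 3.05 to 3.25 for their ratio. Without the members whose guide recurs in another gene, the ratio of the clusters was 2.70, since Mir92-1 and Mir19b-1 then left miR-17-92. The log2 ratios of Mir92-1 and Mir25, which were not called, changed sign: 0.227 and 0.234 under library totals, 0.0649 and 0.0728 with a count minimum of 1, and 0.00377 and 0.0116 with a minimum of 50. The median over the members was 0.42 under library totals, beside 0.26 over all genes tested. With a count minimum of 1 it was 0.26, beside 0.13 over all genes tested. Of all genes, 42 were called under library totals, 15 of 278 with a count minimum of 50 and 72 with a fold minimum of 1.5, against 27. Of the members, 0 were called with a count minimum of 50, because Mir19b-1 was then not tested, and 2 with a fold minimum of 1.5, Mir20a being added. DESeq2 size factors changed no call of a member. No paired analysis was possible because both libraries belong to 1 group. Depth limits Mir19b-1 most, and with 2 libraries each SD is itself imprecise.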

Other observations

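The 3 members with the highest log2 ratios among those above 100 mean CPM, Mir17, Mir20a and Mir93, end in the same 8 bases, GCAGGUAG, although they come from 2 chromosomes. Among 1738 mature arms in RefSeq, 6 end in these bases, and the others are those of Mir106a, Mir20b and Mir7239, the last with 0 counts in both libraries. The ratios of Mir106a and Mir20b were 2.30 and 1.87, so all 5 detected genes with this end had ratios of at least 0.51. Of the detected genes whose guides resemble these but end otherwise, Mir106b and Mir18 had 0.10 and 0.17, while Mir18b had 1.06 (-0.07 to 2.27) from 20 and 11 counts in replicates 1 and 2, so ratios this high were not limited to the shared end. The genes were grouped by this end after their values were seen, and the pattern was not tested. The guides of the 5 detected genes also share the seed and most of their other bases.

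Windows of 250 bases before to 50 bases after the RefSeq start of the host genes were searched on both strands for the E-box CACGTG and the E2F motifs TTTCCCGC and TTTGGCGC. For Mcm7, 1 of its 2 windows held TTTCCCGC, which 1.07% of all 32851 windows hold, and neither held CACGTG (7.15% of all windows) or TTTGGCGC (0.514%). The single window of Mir17hg held none of them. It begins at position 115044140 of chromosome 14 (GRCm38.p6), downstream of Mir17, Mir18 and Mir19a, and so does not cover the start of the GENCODE transcript.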
